A study of Mus musculus with 6 samples.

Results

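The array used here carried 4275 probes to candidate long intergenic non-coding RNA (lincRNA) regions on chromosomes 1 to 19, out of 56605 probes that were not controls. They were chosen by name only: the probe's name had to give a genomic interval with the letter F (forward strand) or R (reverse strand). The interval names and the probe positions in the deposited files refer to mouse build mm9 (NCBI37). There were 2143 F and 2132 R probes, and together they covered 3093 regions. Of these regions, 1178 had F probes only, 1103 had R probes only, and 812 had probes on both strands. RNA came from primary cultures of cerebral cortex taken from C57/B6 mouse embryos at embryonic day 16, and was collected on day 12 in vitro. The labels give no irradiation for the 3 control cultures, and the 3 irradiated cultures received daily exposures of 3 hours at 3.1 THz, a frequency between microwaves and infrared light, on days 5 to 9 in vitro. The study asked how this exposure changes gene expression in neuron cultures. Each culture was hybridised to its own 1-colour array, and the labels do not say whether the cultures came from separate dissections, so the p-values measure only the spread between these samples.

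LincRNAs are transcripts without a long open reading frame that arise outside annotated protein-coding genes. Many are spliced and polyadenylated like messenger RNA, and brain tissue expresses a large variety of them. Because a transcribed interval can be read from either DNA strand, arrays place probes on both strands where the direction of transcription was unknown at design time. A probe that detects RNA on 1 strand gives that direction, and detection on both strands can come from a pair of overlapping transcripts or from other RNA of like sequence. Some of the regions overlap non-coding genes that have since been named, among them Rian and Mirg of the imprinted Dlk1-Dio3 domain, Ipw of the imprinted Prader-Willi domain, and Tug1, Pvt1, Gas5 and Neat1.

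The probes were 60 bases long, and the following pairs are shown because the results on strands, base composition and shared sequence turn on them. The first pair reads the same stretch of region chr10:97196521-97207471 from opposite strands. Its F probe lay at 97203040 to 97203099 and its R probe at 97203018 to 97203077, and capitals mark the 38 bases whose complement the other probe holds.
chr10 F: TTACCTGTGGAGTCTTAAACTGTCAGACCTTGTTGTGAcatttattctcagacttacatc
chr10 R: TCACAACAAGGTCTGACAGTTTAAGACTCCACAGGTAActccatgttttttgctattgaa
The second pair does the same in region chr5:74340084-74346709, with 50 such bases in capitals. Its F probe lay at 74342324 to 74342383 and its R probe at 74342334 to 74342393.
chr5 F: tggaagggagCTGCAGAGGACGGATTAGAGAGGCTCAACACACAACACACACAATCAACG
chr5 R: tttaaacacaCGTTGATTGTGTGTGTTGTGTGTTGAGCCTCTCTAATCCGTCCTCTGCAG
The third pair, of region chr12:73838608-73862621, does not overlap and has 80.0% G and C on the F strand and 78.3% on the R strand. Capitals mark the CG dinucleotides, 9 in the F probe and 4 in the R probe. The median over all region probes was 0 such dinucleotides, and 97 probes (2.27%) had 5 or more.
chr12 F: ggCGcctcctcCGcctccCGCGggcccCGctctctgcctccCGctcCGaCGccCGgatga
chr12 R: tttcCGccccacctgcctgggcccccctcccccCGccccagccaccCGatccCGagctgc
The fourth pair comes from different chromosomes, namely the F strand of chr5:96591892-96606467 (probe at 96603471 to 96603530) and the R strand of chr14:55433382-55452757 (probe at 55444949 to 55445008). Capitals mark the 53 of 54 aligned bases that are identical.
chr5 like-probe F: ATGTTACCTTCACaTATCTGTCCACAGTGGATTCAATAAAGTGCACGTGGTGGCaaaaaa
chr14 like-probe R: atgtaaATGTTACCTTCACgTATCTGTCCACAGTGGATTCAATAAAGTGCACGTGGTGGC

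All 6 arrays were on 1 slide. The 3 controls and irradiated culture 1 shared row 1, and irradiated cultures 2 and 3 were in row 2, so slide row cannot be told apart from group except through irradiated culture 1. Overall signal differed between arrays: the 75th percentile of processed signal was 462, 674 and 1026 intensity units in controls 1 to 3 and 1195, 1258 and 895 in irradiated cultures 1 to 3. No probe was saturated on the arrays. Although the cultures are labelled as neurons, defining markers of other cells were well above background on all 6 arrays: 7 of 7 neuronal markers, 5 of 5 astrocyte, 5 of 5 oligodendrocyte lineage, 5 of 5 microglial, and 4 of 5 endothelial or mural markers, Cldn5 being the exception. In such bulk RNA, fewer cells of a type and less RNA per cell cannot be told apart.

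The regions were not all empty of genes in the design used. Regions had a median length of 7328 bases (range 62 to 538251), and 1679 overlapped another region of the set. In 539 regions (17.4%), a probe of a named gene lay inside the interval. Of the 4275 probes, 4184 had a position, and every one of these lay on the strand given in its name. The other 91 had no position in the files. Region probes were richer in G and C than the other probes, with a median of 45% against 41.7%, and 23.0% of them against 13.0% had more than 50% G and C.

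Detection was read from the scanner's own call that a spot was well above background. Of the 4275 region probes, 2836 (66.3%) were well above background on at least 3 of 6 arrays, against 72.1% of the 52330 other probes. On all 6 arrays the shares were 50.4% and 61.8%, and 25.2% of region probes were detected on no array. F and R probes had shares of 66.2% and 66.5%, and on control 1, the lowest array for both, 55.3% and 53.7%. Per array, the share of region probes was 54.5%, 61.5% and 66.5% in controls 1 to 3 and 68.0%, 66.1% and 67.3% in irradiated cultures 1 to 3. Control 3 lay within the range of the irradiated arrays, and controls 1 and 2 lay below it. In the other probes all 3 controls lay below the irradiated arrays, at 64.0%, 69.1% and 71.7% against 74.0%, 73.1% and 72.0%. The means were 60.8% ± 6.03 (SD, n = 3) in controls and 67.1% ± 0.933 (SD, n = 3) in irradiated cultures, and the groups overlapped in the region probes. Control 1 was also the array of lowest overall signal, and the part of signal in these shares was not tested.

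Detection of region probes was more frequent at higher G and C content of the probe. It was 56.4% for the 523 probes with up to 35% G and C, 61.7% between 40% and 45%, 79.4% between 50% and 55%, and 91.0% for the 266 probes above 55%. It also differed with the length of the region, from 57.6% in regions of up to 1 kb to 72.5% in regions over 50 kb. Where a named gene's probe lay inside the region on the same strand, 75.6% of 381 region probes were detected, and where it lay on the opposite strand only, 67.9% of 374. Of the 3453 probes in regions with no such gene, 64.9% were detected. Chromosomes ranged from 59.9% of 262 probes on chromosome 3 to 74.7% of 249 on chromosome 17. Probes of 1 region share their transcript and their interval, so these shares are descriptions without a test. In 299 cases a region had several probes on 1 strand: all were detected in 158, none in 38, and some but not others in 103.

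Among the 812 regions with a probe on each strand, both strands were detected on at least 3 of 6 arrays in 443 (54.6%), only F in 121 (14.9%), only R in 162 (19.95%), and neither in 86 (10.6%). Most regions were uniform over the arrays. Both strands were detected on all 6 arrays in 291 regions. In other regions a single strand was detected on all 6 arrays and its partner on none, F in 74 and R in 92, and 51 regions were detected on neither strand on any array. On single arrays the share with both strands was lowest in control 1, at 41.1%, and lay between 50.5% and 55.8% on the other 5. In 126 regions the F and R probes read at least 30 bases of the same stretch, and there both strands were detected in 59, F alone in 16, R alone in 18 and neither in 33.

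Regions with 1 strand detected on all 6 arrays and the other on none are described by those of highest mean signal. All values that follow are log2 processed signals from which the 75th percentile of their array was subtracted. In chr10:97196521-97207471, the F probe printed above read 2.18, 2.38 and 2.18 in the controls and 2.08, 2.05 and 1.83 in the irradiated cultures, while its R partner was detected on 0 of 6 arrays. The F probe also shared 39 aligned bases at 94.9% identity with the array's probe for Saraf, a regulator of store-operated calcium entry, and the part of Saraf RNA in its signal was not tested. The irradiated values of the F probe all lay below the control values, but the difference of -0.26 (standard error, SE, 0.20) had an adjusted p of 0.651 in limma.

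The interval chr1:193875525-193978800 holds the R-strand gene Rcor3 (a corepressor that partners histone demethylase complexes). Its brightest R probe read 5.06, 4.41 and 4.34 in controls and 3.94, 4.36 and 4.63 in irradiated cultures. A second R probe of the region was far dimmer, at -3.69, -3.11 and -3.32 against -3.52, -3.20 and -3.20. The groups overlapped in both R probes, and the F probe of the region was detected on no array. In chr6:86425510-86450160, which holds 2310040G24Rik on the R strand, the R probe read 3.79, 3.50 and 3.16 against 2.46, 2.61 and 3.25, again with overlapping groups. In chr17:86560289-86565864, the R probe, 92 bases from the probe of the R-strand gene model Gm5817, read 3.52, 2.53 and 2.17 against 1.48, 1.43 and 2.14. There the groups did not overlap, with a difference of -1.05 (SE 0.39) and a limma adjusted p of 0.539. Without control 1 the difference was -0.66. The detected strand was not always that of a gene probe inside the region. In chr5:31856417-31916414 and chr1:57410074-57426723, the F probe was detected on all 6 arrays and the R probe on none, whereas the gene probe inside (AI839979 and 4930558J18Rik, respectively) was on the R strand. The nearest gene probes outside were on the F strand. Slc4a1ap lay 55 bases from the chr5 interval, and 1700066M21Rik 13546 bases from the chr1 interval. Another region of the set starts at the same base as the chr5 interval and ends slightly before it. That region had both its F and its R strand detected on all 6 arrays. Detection on the F strand only thus holds for the probes of the chr5 interval named here, and not for the whole stretch.

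Regions with both strands detected on all 6 arrays are described in the same way. In chr12:73838608-73862621, the G and C rich pair printed above read 6.85, 5.91 and 5.46 in controls and 5.02, 4.94 and 5.57 in irradiated cultures on F. On R it read 7.32, 6.77 and 6.32 against 6.06, 5.96 and 6.40. On both strands control 1 was highest and the groups overlapped. In chr7:108209996-108216032, the R probe read 6.66, 6.64 and 6.35 against 5.90, 6.01 and 6.46, and it was 84.2% identical over 57 aligned bases to a probe of Rps29, a ribosomal protein gene. That Rps29 probe read 7.55, 7.45 and 7.15 against 6.72, 6.85 and 7.27, so irradiated cultures 1 and 2 were the low arrays for both. The R probe of this chr7 region had no position. In chr14:33923944-34003394, the F probe read 2.76, 2.30 and 1.67 against 1.51, 1.22 and 1.71, and the R probe 1.38, 0.88 and 0.62 against 0.28, 0.33 and 0.39. In chr5:35975265-35982561, whose F and R probes share 34 complementary bases, both strands were detected, unlike in the chr10 pair. Its F probe read 1.86, 2.42 and 2.47 against 2.32, 2.28 and 2.35, and its R probe 4.37, 4.88 and 4.28 against 3.77, 3.83 and 4.49, with overlapping groups on each strand. In chr17:71242333-71273533, the F probe read 2.71, 3.06 and 2.22 against 1.72, 1.93 and 1.90, with groups apart and a difference of -0.82 (SE 0.26, limma adjusted p 0.539), while the R probe's groups overlapped at 1.73, 1.14 and 0.82 against 0.49, 0.45 and 0.96. Over the whole set, 26 region probes matched an array probe outside the set over at least 30 bases at 90% identity or more on the same strand. As the complement of such a probe, 55 matched. These outside probes include some without a gene name, and the cut leaves out weaker matches such as the 84.2% match to Rps29.

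No region probe passed the test for a difference between irradiated and control cultures. limma was fitted over the 40552 probes detected on at least 3 of 6 arrays, 2836 of them region probes. The lowest Benjamini-Hochberg adjusted p was 0.539, and 0% of all probes were called. At an unadjusted p under 0.05, limma gave 451 region probes (15.9%), against 8.71% of all probes. With a fold of at least 1.5 as well, 127 region probes (4.48%) were higher in irradiated cultures, against a background of 4.63%, and 300 (10.6%) were lower, against a background of 3.6%. The 3 irradiated values lay above all 3 control values in 198 region probes (6.98%, background 6.93%) and below them in 399 (14.1%, background 6.89%). For a single probe, an exact two-sided permutation test of 3 against 3 cannot go below 0.1. The share of higher values was therefore near the background, and the share of lower values was above it.

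The number of probes at the unadjusted threshold and fold moved with the arrays and the scaling, and the share over all probes moved with it. The 427 region probes (15.1%, against 8.23% of all probes) became 242 (8.53%, against 4.94%) without control 1, and 839 (29.6%, against 15.0%) without control 3. They became 151 (5.32%) without irradiated culture 1, against 3.01% of all probes, and 151 (5.32%) without irradiated culture 2, against 3.18%. Without control 2 there were 283 higher (9.98%) and 138 lower (4.87%), and all probes had 8.61% higher and 1.73% lower, so more probes were higher than lower in the whole array too. The share of lower region probes was between 1.95 and 3.52 times that of all probes in each of the 16 settings run.

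Of the 427 probes, 70.3% were lower, against 43.7% of the probes at that threshold in the whole array. The scaling moved both shares: they were 77.5% and 54.4% after quantile normalisation, 95.5% and 86.5% after normexp background correction, and 57.8% and 33.8% after centring on G and C content. With the percentile taken over probes detected on all 6 arrays, which shifts all probes of an array alike, they were 57.2% and 31.6%. The 597 region probes whose groups did not overlap (21.1%, against 13.8% of all probes) became 1430 (50.4%, against 36.9%) without control 3 and 1269 (44.7%, against 35.3%) without irradiated culture 3, where fewer arrays make separation easier.

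Over all 2836 region probes, the median difference (irradiated minus control) was -0.23 on the log2 scale, against -0.0093 for the other probes, and 1865 region probes (65.8%) had a difference below 0, against 51.1% of other probes. The median stayed below 0 without any 1 array, between -0.34 and -0.19. On the separate arrays, the 2156 region probes detected throughout had a median deviation from their own 6-array mean of 0.37, 0.21 and -0.09 in controls 1 to 3. In irradiated cultures 1 to 3 it was -0.24, -0.23 and 0.01. The groups overlapped, since control 3 lay below irradiated culture 3. The other probes had median deviations between -0.05 and 0.06. The array with the lowest overall signal, control 1, had the highest region deviation, and irradiated cultures 1 and 2, the arrays of highest signal, had the lowest. The part of overall signal in the shift of the region probes was not tested.

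The difference also moved with the base composition of the probe. The median difference of region probes was 0.21 for the 295 probes with up to 35% G and C, 0.01 between 35% and 40%, and -0.19 between 40% and 45%. It was -0.41, -0.37 and -0.51 in the 3 classes above that. Other probes also ran from higher to lower, from 0.09 in the lowest class to -0.35 in the highest. Above 40% G and C, region probes lay below other probes of the same class. Once each array was centred on the other probes of equal G and C content, a step added after seeing the data, the median difference of region probes was -0.13 and that of other probes -0.01. By mean signal, the median difference of region probes ran from -0.10 in the lowest of 6 classes to -0.34 in the highest, and that of other probes from 0.10 to -0.17.

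The region probes with the smallest unadjusted p and higher irradiated values numbered 8 by the naming rule, and 7 of them are named here. These 7 had signals far below the 75th percentile and a G and C content of 35.0% to 41.7%. On the F strand of chr2:67410825-67411407, a region of 583 bases, the values were -6.47, -5.57 and -5.60 in controls and -4.62, -4.55 and -4.23 in irradiated cultures. The groups did not overlap, and the difference was 1.41 (SE 0.30, limma adjusted p 0.539). The probe was well above background on 2 control and 3 irradiated arrays. Its sequence, with G and C in capitals, shows how few of these bases it holds.
chr2 F: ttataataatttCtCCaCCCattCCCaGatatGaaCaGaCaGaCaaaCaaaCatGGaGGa
The F strand of chr17:15111725-15139800, whose interval holds the F-strand gene model 9030025P20Rik, read -5.06, -5.00 and -4.75 against -3.19, -3.85 and -4.01. All irradiated values were higher, by 1.25 (SE 0.27, fold 2.38, limma adjusted p 0.539). The R strand of chr9:96964067-96973567, 1804 bases from a probe of the R-strand gene Slc25a36 (a mitochondrial pyrimidine nucleotide carrier), read -5.33, -5.12 and -5.54 against -4.33, -4.58 and -4.33. The R strand of chr2:157361470-157379813, 2322 bases from a probe of the imprinted R-strand gene Blcap, read -5.66, -4.88 and -4.96 against -4.20, -3.86 and -4.04. Both had groups that did not overlap, with differences of 0.92 and 1.13, and the latter was detected on 2 control and 3 irradiated arrays. Direction was not stable to the background correction: with normexp the difference was -0.06 at the chr2:67410825-67411407 probe and -0.11 at the chr9 probe, and it was 0.18 at the chr17 probe and 0.05 at the chr2:157361470-157379813 probe.

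The others of this group were near the detection limit. The R strand of chr6:28172545-28176170 was well above background on 1 control array and all 3 irradiated arrays, and read -7.71, -6.15 and -5.97 against -4.34, -4.38 and -5.22. In chr2:104640443-104659168 the R probe was likewise detected on 1 control array and 3 irradiated arrays, and read -7.77, -7.76 and -5.79 against -5.00, -4.77 and -5.26. Region chr1:138528250-138538250 lay 1826 bases from a probe of the zinc finger gene Zfp281. An F probe there was detected on no control array and on 3 irradiated arrays. Its signal was at least 1.13-fold higher in irradiated cultures, taking in each control array the higher of the probe's own signal and the lowest signal among detected probes. With normexp the differences of these 3 probes were -0.01, -0.16 and -0.32. Another F probe of the chr1 region was detected on all 6 arrays. It read -0.01, -0.32 and 0.47 against 0.32, 0.04 and 0.37, with overlapping groups. Over the whole set, 27 region probes (0.632%) were detected on 3 irradiated and 0 control arrays, against 0.634% of all probes, and 2 on 3 control and 0 irradiated arrays, against 0.0124%.

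The region probes with the smallest unadjusted p and lower irradiated values spanned 41.7% to 60% G and C. The R probe of chr5:74340084-74346709, printed above, was at -1.13, -1.01 and -1.83 in controls and -2.92, -2.89 and -2.47 in irradiated cultures. All irradiated values were lower, by 1.43 on average (difference -1.43, SE 0.28, fold 2.70, limma adjusted p 0.539), and between -1.69 and -1.28 without any 1 array. Its F partner, which reads 50 of the same bases from the other strand, was at -4.83, -5.49 and -5.10 against -6.39, -6.05 and -5.40, so irradiated culture 3 lay within the controls on that strand. The F difference was -0.81 (limma adjusted p 0.539). The nearest gene probe on the array was that of Usp46, a deubiquitinase, 48534 bases away.

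In chr14:105987405-106063477, whose interval holds the F-strand gene model 9330188P03Rik, the F probe read -5.49, -5.42 and -5.03 against -6.41, -6.99 and -6.53. It was well above background on only 2 control arrays and 1 irradiated array, so some of these values were not measured above background. The groups did not overlap, with a difference of -1.33 (SE 0.25, limma adjusted p 0.539). Its sequence has 41.7% G and C, shown in capitals.
chr14 F: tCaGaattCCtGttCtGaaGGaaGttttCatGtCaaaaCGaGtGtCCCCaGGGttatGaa
In chr10:3227840-3233588, the R probe, 442 bases from a probe of Cnksr3 (a scaffold protein of sodium transport in epithelia), read -4.85, -4.92 and -5.23 against -5.90, -6.25 and -6.05. Its F partner shares 44 complementary bases and read -5.27, -4.84 and -5.24 against -5.24, -5.80 and -5.27, with overlapping groups. An R probe of chr2:25774411-25783757 read -5.24, -5.61 and -5.54 against -6.66, -7.18 and -6.28. It was detected on 3 control arrays and 1 irradiated array. Another R probe of the region, which had no position, was detected on all 6 arrays. That probe read -4.42, -4.87 and -4.49 against -4.35, -4.94 and -4.14, with overlapping groups. The region lay 618 bases from a probe of the F-strand sodium-activated potassium channel gene Kcnt1.

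In chr3:93564825-93576725, the R probe was detected on 3 control arrays and no irradiated array, at -5.18, -5.57 and -5.85 against -7.19, -7.58 and -6.37. On the centred values this gives a signal at least 1.95-fold higher in controls. The R probe met the detection filter only through the control arrays, so this fold is a description only. Its F partner, with 46 complementary bases, was steady at -1.82, -2.38 and -2.29 against -2.40, -2.35 and -2.20. The remaining 3 probes of this group lay on the R strands of chr11:69184157-69201732, chr14:65720392-65769859 and chr8:35650475-35664200, with differences of -1.13, -1.17 and -0.99 and groups that did not overlap. The first and the last of these were detected on 3 control arrays and 1 irradiated array. On the R strand of chr14:65720392-65769859, another probe, detected on all 6 arrays, differed by -0.24 (limma adjusted p 0.794). A further R probe there, detected on 3 arrays, went the other way. It differed by 0.9995 with groups apart (limma adjusted p 0.539). Neither of these other R probes had a position. All 8 lower probes kept their direction with normexp and with G and C centring, and all had a limma adjusted p of 0.539. With normexp the differences were smaller in size: -0.77 at chr3:93564825-93576725, -0.75 at chr14:105987405-106063477, -0.76 at chr2:25774411-25783757, -1.22 at chr5:74340084-74346709, -0.70 at chr10:3227840-3233588, -0.73 at chr11:69184157-69201732, -0.82 at chr14:65720392-65769859 and -0.69 at chr8:35650475-35664200.

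On chromosome 12, 3 regions of the imprinted Dlk1-Dio3 domain held probes of Rian or Mirg, long non-coding RNAs transcribed from the maternal chromosome and hosts of small nucleolar RNAs and microRNAs. In chr12:110842154-110883594, a probe on the F strand, the strand of Rian, read -3.49, -2.19 and -2.52 in controls and -0.85, -1.14 and -1.83 in irradiated cultures. A second F probe of the region read -0.67, 0.16 and -0.65 against 0.70, 0.40 and 0.30. In neither did the groups overlap, and the differences were 1.46 (SE 0.40) and 0.85 (SE 0.29), each with a limma adjusted p of 0.539. The sequences of both probes are given in the same order, since they lie far apart in 1 interval, at 110876077 to 110876136 and 110865304 to 110865363.
Rian region F, first: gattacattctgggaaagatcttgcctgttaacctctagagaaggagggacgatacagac
Rian region F, second: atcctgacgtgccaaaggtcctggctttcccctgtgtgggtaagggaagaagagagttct
In chr12:110896603-110940553, an F probe read -5.44, -3.59 and -4.37 against -3.11, -3.54 and -3.07, and another read -5.16, -4.21 and -4.49 against -3.75, -4.03 and -3.99. In both the groups were apart by a narrow margin. The differences of 1.23 and 0.70 were 0.74 and 0.43 without control 1, and the second was -0.12 with normexp. In chr12:110944403-110988678, which holds Mirg, the F probe read -3.05, -2.22 and -3.44 against -1.80, -2.43 and -1.97, with overlapping groups and a difference of 0.84.

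The R probe of chr12:110896603-110940553 was detected on no control array and 2 irradiated arrays, and that of chr12:110944403-110988678 on 1 control and 2 irradiated arrays. All 5 F probes of these regions thus had higher irradiated means, and the array's own probes of these genes gave mixed values. For Rian, the probe of higher mean signal differed by -0.27 (limma adjusted p 0.821) and the other by 1.78 (0.539). For Mirg, the probe of higher mean signal differed by 0.27 (limma adjusted p 0.748) and the other by 1.1 (0.539). Probes of 1 transcript are not separate samples.

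The region chr7:66874527-67012170 holds Ipw, a paternally expressed non-coding RNA of the Prader-Willi domain, on its R strand. Its R probe read -1.35, -0.38 and -1.12 in controls and 0.75, 0.02 and -0.04 in irradiated cultures. The groups did not overlap, with a difference of 1.19 (SE 0.34, limma adjusted p 0.539), and the array's own Ipw probe had a difference of 1.43. The R probe also shared 43 aligned bases at 88.4% identity with the probe of the gene model LOC101055630, which read -0.22, 0.70 and 0.12 against 2.0, 1.21 and 1.07. The F probe of the smaller interval chr7:66926500-66952100 inside it went the other way, at 0.53, 0.19 and -0.01 against -0.55, -0.52 and 0.08, with overlapping groups.

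Other named non-coding genes inside the regions gave smaller or mixed values. For Tug1, in chr11:3538125-3554450, the R probe on the gene's strand read -5.41, -4.73 and -5.16 against -4.30, -4.29 and -4.37, a difference of 0.78 that became -0.13 with normexp. Its F probe read -0.70, 0.03 and 0.06 against -1.05, -0.54 and 0.26. For Gas5, host of small nucleolar RNAs, in chr1:162965309-162970704, the probe on the gene's F strand differed by 0.48, or -0.09 with normexp. The probe on the R strand differed by -0.998, and by -0.66 without irradiated culture 1 and -1.55 without irradiated culture 3. In the Pvt1 region chr15:61984389-62102500, an F probe read -1.20, -1.11 and -1.25 against -1.15, -1.17 and -1.45, a difference of -0.07 (SE 0.20). Another F probe of that region read -3.59, -2.44 and -3.40 against -2.63, -2.56 and -2.38 (difference 0.62, SE 0.32, and 0.40 without control 1), and its R probes differed by -0.61 and -0.07, all with overlapping groups. In chr1:42759171-42771337, which holds Pantr2 on the R strand, R probes detected on all 6 arrays differed by -0.80 (SE 0.30, groups apart) and -0.54 (overlapping groups). Another R probe was detected on 1 array, and these R probes had no position. The F probe differed by -0.57 (SE 0.23, groups apart, limma adjusted p 0.539). In the Halr1 region chr6:52046805-52072744, inside the Hoxa cluster, both F probes and 1 of the 2 R probes were detected on no array. The probe of the region holding Fendrr, chr8:123571640-123607481, and those of the region holding Ptgs2os2, chr1:152001112-152012796, were likewise detected on no array.

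Several of these genes had region probes on the strand opposite to the gene. Neat1, the scaffold RNA of nuclear paraspeckles, is on the R strand, and an F probe of chr19:5771425-5848475 read 1.63, 0.88 and 0.52 against 0.30, 0.18 and 0.63, with overlapping groups and a difference of -0.64 (SE 0.32) that was -0.33 without control 1. The other F probe of that interval differed by -0.02 (0.23 without control 1), and the F probe of chr19:5841103-5845579, which also holds Neat1, by -0.31 (-0.12 without control 1). Pantr1, a non-coding neighbour of the neural transcription factor gene Pou3f3, is also on the R strand. The F probe of its region chr1:42689799-42749799 read 1.41, 0.34 and 0.23 against -0.20, -0.31 and 0.21, and the groups did not overlap (difference -0.76, SE 0.35, limma adjusted p 0.539, and -0.39 without control 1). For Oip5os1, on the F strand, the R probe of chr2:119412770-119435110 read -1.12, 0.01 and -0.14 against -1.51, -1.20 and -0.04. For Tunar, a regulator of neural differentiation on the F strand, the R probe of chr12:106566735-106624460 read -2.19, -2.63 and -2.85 against -3.61, -3.45 and -2.78. In both the groups overlapped. All of these probes were detected on all 6 arrays. The R probe of the Crnde region chr8:94841965-94881130, on the strand of the gene, was detected on 1 control array and 3 irradiated arrays.

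Of the 35 non-coding genes listed, 31 had a probe of their own on the array, 26 of these were kept, 0 passed the adjusted test, and at an unadjusted p under 0.05 in limma 6 were higher (Meg3, Miat, Snhg11, Kcnq1ot1, Lncpint and Ipw) and 0 lower. That is 23.1% of 26 genes, against 8.71% of all probes, each gene being read from its probe of highest mean signal. The list was chosen with earlier results of these data known, and the 8.71% counts every probe of a gene. The share is therefore a description and no result about the listed genes. The list had a median difference of 0.06 against -0.02 over all 40552 probes.

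To compare strands within a region, the F minus R difference was taken on each array, so that the fixed effect of probe sequence cancels between arrays. Over the 291 regions with both strands detected on all 6 arrays, the irradiated minus control change of this difference had a median of -0.11, with quartiles of -0.53 and 0.25. In 279 regions, F minus R had the same sign in both group means. The groups did not overlap in 51 regions (17.5%), 16 with a higher and 35 with a lower F minus R in irradiated cultures. For F minus R there is no share over all probes to set beside this. For single probes, the groups did not overlap in 13.8% of all probes and 21.1% of region probes. Without any 1 array, the median change stayed between -0.16 and -0.06. With G and C centring it was -0.12. Effects of G and C content that differ between arrays do not cancel in F minus R.

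The regions with the largest change rested in part on control 1. In chr17:46972160-46997919, F minus R was 6.75, 3.86 and 3.93 in controls and 2.97, 2.79 and 2.78 in irradiated cultures, a change of -2.0 that became -1.05 without control 1. In chr16:90008636-90015586 it was 0.54, -2.33 and -1.77 against -2.59, -3.24 and -2.94, and the change of -1.73 became -0.87 without control 1. In chr3:84609788-84618062 it was 6.07, 2.89 and 2.5 against 2.5, 1.82 and 2.14, and the change of -1.67 became -0.54. Control 1 was the highest array in all 3, and the groups did not overlap, in the last of them by less than the rounding shows. In the same order, the F probes had 71.7%, 45% and 43.3% G and C, and the R probes 45%, 35% and 36.7%. With G and C centring the changes were -1.72, -1.55 and -1.53. The part of base composition in these changes was not tested.

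The fourth, chr3:126989696-127112471, holds the R-strand gene Ank2, which encodes the membrane adaptor ankyrin-B. F minus R was 2.19, -0.05 and 0.21 in controls and -1.21, -0.86 and -0.69 in irradiated cultures, so its sign differed between the group means, and the change of -1.70 became -0.999 without control 1. The R probe used there has 35.0% G and C and the F probe 60%. With G and C centring the change was -1.25. A second R probe of the region, which is the exact complement of the F probe over all 60 bases, read -3.37, -3.18 and -3.06 in controls and -3.39, -3.05 and -3.50 in irradiated cultures. The F probe itself read -0.13, -0.80 and -1.28 against -1.73, -1.58 and -1.13.

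The probes that varied most over the 6 arrays did not follow the groups. The like probes of chr5:96591892-96606467 F and chr14:55433382-55452757 R, printed above, read 2.88, 0.26 and -0.61 and 2.86, 0.20 and -0.71 in controls 1 to 3. In irradiated cultures they read 1.59, 0.11 and -0.21 and 1.61, 0.05 and -0.27. Both arrays numbered 1 were high in both probes. Each matched the array's probe for Ifitm3, an interferon-induced antiviral membrane protein, at 85.4% identity over 48 aligned bases, and the Ifitm3 probe read 3.97, 1.11 and 0.24 against 3.06, 1.0 and 0.62, in the same order of arrays in both groups. The chr5 and chr14 probes also aligned to an Ifitm1 probe over 51 bases, at 84.3% and 82.35% identity. That probe read -3.11, -4.50 and -6.01 against -3.75, -4.41 and -5.83. They aligned to a probe of the gene model Gm2518 at 86.8% over 53 bases and 84.75% over 59. It did not follow that order of arrays, at -7.77, -8.14 and -7.98 against -8.64, -7.08 and -8.60. Since the region probes differ from each other at 1 of 54 bases and resemble Ifitm3, their signals cannot be assigned to either region. Another F probe of the chr5 region read 2.36, -0.32 and -1.14 against 1.18, -0.31 and -0.64. In chr4:115639749-115641787 the R probe read -1.89, -4.55 and -4.76 against -2.06, -4.65 and -4.31, and the F strand of chr17:8718223-8949898 read -3.24, -5.30 and -5.04 against -2.41, -5.88 and -3.96. In these too the arrays numbered 1 were the highest of their group.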

How the data were processed

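Spot intensity values were deposited in scanner files, and the file headers and the submitters' processing notes name version 10.7.1.1 of Agilent Feature Extraction as their source. Its processed signals are background-subtracted, per the file headers. RNA (0.2 µg) was labelled with Cy3 per the labels. The authors' deposited table of log2 values had equal medians (5.91) on each array and followed the scanner values in direction, and served as an alternative; its making was not given in the sources used here.

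Control spots and spots marked as outliers were left out, log2 processed signals were centred on each array's 75th percentile over the remaining spots, and spots of a probe were averaged. Probes well above background on at least 3 of 6 arrays were fitted with limma 3.58.1 (lmFit, eBayes; R 4.3.3), tested on simulated data, with Benjamini-Hochberg adjustment over all 40552 probes at 0.05. Like sequences were found with blastn 2.17.0 (word size 11). Genes inside or near regions are those of array probes by mm9 position.

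The members and lists were chosen with earlier results of these data known. Probes were named by rule: the 8 higher and 8 lower probes of smallest unadjusted p; the brightest regions detected on 1 strand or on both, 6 of each; the 4 non-overlapping regions of largest strand change; the 4 most variable probes; and regions holding a listed non-coding gene. Where a strand had several probes, the brightest stood for it. The second chr5 and chr14 like-probes and partner probes were added after their values were seen. Regions on chromosome 18 were counted but not named. Alternatives covered normalisation, background correction, dim-probe filters, the replicate number, G and C centring (added later) and leaving out arrays. Precision is limited by the 3 arrays per group.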

Additional observations from a re-analysis of the deposited data

How the results depend on the processing

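No region probe passed the adjusted threshold under any of the alternatives run (limma, adjusted p at 0.05), against 451 at an unadjusted p under 0.05. The 427 region probes at unadjusted p and fold became 710 with normexp (1.13% higher and 23.9% lower, against 1.30% and 8.37% of all probes), which also moved the median of all probes to -0.19. They became 172 without both arrays numbered 1 (2.68% higher and 3.39% lower, against 2.19% and 1.34%). Leaving out 1 array at a time gave 151 to 839. The 597 probes with groups that do not overlap became 927 without both arrays numbered 1 (32.7%, against 26.6% of all probes), and 716 to 1430 without 1 array, where fewer arrays make separation easier. The highest came without control 3, and the count without irradiated culture 3 was 1269. The median difference of region probes was -0.46 with normexp, against -0.17 in other probes, and -0.13 without both arrays numbered 1.

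The detected share of region probes was 74.8% when 1 array sufficed, 50.4% when all 6 were required, and 89.6% with the scanner's laxer call of positive and significant signal. With that laxer call, regions detected on 1 strand numbered 105 in place of 283. With normexp, the difference turned below 0 in chr2:67410825-67411407 F (-0.057), chr9:96964067-96973567 R (-0.11), chr6:28172545-28176170 R (-0.013), chr1:138528250-138538250 F (-0.32), chr2:104640443-104659168 R (-0.16), chr11:3538125-3554450 R (-0.13) and chr12:110896603-110940553 F (-0.12); the cause was not tested. Of 1083 values of named probes under alternatives, 1039 kept direction and side of the threshold, and 37 changed sign from a difference with an unadjusted p of 0.05 or more.

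With the replicate number as a block, 380 region probes met the unadjusted p and fold (159 higher, 5.61%, and 221 lower, 7.79%, against 5.15% and 2.88% of all probes) and 0 the adjusted threshold. Same-numbered samples had correlated deviations of 0.46, 0.33 and 0.09 over 40552 probes. Unlike-numbered samples had 0.36 (control 3 with irradiated culture 2) and 0.15 (control 2 with irradiated culture 3), and the other values were negative. The third pair was under 0.1, and the numbers were not taken as pairs. Dim probes near background limit the smaller differences.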
